A study of Mus musculus with 6 samples.

Results

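The genes described are 10 of the bone morphogenetic protein (BMP) pathway: the ligands *Bmp4* and *Bmp6*, the secreted antagonist *Grem1*, the receptors *Bmpr1a* and *Bmpr2*, the inhibitory SMADs *Smad6* and *Smad7*, and the ID genes *Id1*, *Id2* and *Id3*. They were taken by name from the array annotation and not by their values, and they make up 10 of the 22298 named genes and 11 probes of the array. RNA was compared between 1G11-mock and 1G11-SOD3 cells, a mouse microvascular endothelial line labeled as of C57BL/6NCrLBR origin, without and with overexpression of SOD3, the superoxide dismutase of the extracellular space. All cells, controls included, were exposed for 6 h to conditioned medium of the mouse mammary cancer line N202.1A, so that no sample shows either line without tumor cell factors. Each line was measured on 3 one-color Agilent arrays, labeled as biological replicates. Each condition is represented by 1 line, whose origin as a clone or a pool is not given in the sources used here, so that SOD3 and other differences between the lines cannot be told apart. Values are log2 intensities after background correction and quantile normalization. A probe was called higher or lower above a 2-fold difference if limma gave an adjusted p below 0.05, with Benjamini-Hochberg adjustment over all probes.

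BMPs are secreted dimers of the TGF-β family that bring together type 1 and type 2 receptor kinases, and the type 1 receptor then phosphorylates SMAD1, SMAD5 and SMAD9, which enter the nucleus with SMAD4. In endothelial cells this route is known for its part in sprouting, vessel quiescence and vascular malformation. The ID genes are among its best known direct targets and encode helix-loop-helix proteins without a DNA-binding region, which hold E proteins away from DNA, while SMAD6 and SMAD7 are also induced by the pathway and inhibit it.

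Promoters of 8 of the 10 genes were available from RefSeq (GRCm38.p6), as the 250 bases before the transcription start. Those of the 2 members that were called different, *Id2* and *Bmp6*, are shown with that of *Id3*, the ID gene among the members with a probe outside the middle of the array. Capitals mark matches to the GC-rich SMAD motif GGCGCC or to the E-box letters CAGCTG and CACGTG. The SMAD-binding element CAGACA was searched too, each motif on both strands and with no overlap between the matches shown.
Id2, chr12:25096093-25096342, minus strand: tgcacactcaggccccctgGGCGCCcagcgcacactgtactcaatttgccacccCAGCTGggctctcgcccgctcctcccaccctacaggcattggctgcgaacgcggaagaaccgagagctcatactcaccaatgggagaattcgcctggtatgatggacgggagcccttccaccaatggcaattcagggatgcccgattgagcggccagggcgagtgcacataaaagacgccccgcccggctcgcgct
Id3, chr4:136143572-136143821, plus strand: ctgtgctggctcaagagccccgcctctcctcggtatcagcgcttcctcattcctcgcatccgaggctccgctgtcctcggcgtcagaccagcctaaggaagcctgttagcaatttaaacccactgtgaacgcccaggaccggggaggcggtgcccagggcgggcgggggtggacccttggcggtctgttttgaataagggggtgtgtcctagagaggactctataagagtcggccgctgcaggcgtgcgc
Bmp6, chr13:38345466-38345715, plus strand: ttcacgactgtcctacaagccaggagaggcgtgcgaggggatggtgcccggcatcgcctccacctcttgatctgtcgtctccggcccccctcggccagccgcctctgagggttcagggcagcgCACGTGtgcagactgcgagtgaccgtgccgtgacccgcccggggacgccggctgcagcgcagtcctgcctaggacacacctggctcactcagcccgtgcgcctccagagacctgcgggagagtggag
In the *Id2* window GGCGCC began 231 bases and CAGCTG 196 bases before the start, and in the *Bmp6* window CACGTG began 127 bases before it. None of the 4 motifs occurred in the *Id3* or *Smad6* windows. Among the others, GGCGCC began 198 bases before the start of *Bmpr1a*, 105 bases before that of *Bmpr2* and 78 bases before that of *Grem1*, and CACGTG began 188 bases before that of *Bmp4*. Of 32851 promoter windows of the same length, 9.59% held GGCGCC, 17.1% CAGACA, 13.0% CAGCTG and 6.02% CACGTG. A match is a description of the sequence only.

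Values depended on where a spot lay among the 384 rows and 164 columns of the array. When rows and columns are each cut into 3 equal parts, the spots central in both, here called the middle, read dim on the 1G11-mock arrays. For 128 probes printed 10 times and present both in the middle and elsewhere, the median log2 difference (middle minus elsewhere) was -0.67, -0.87 and -2.42 on 1G11-mock replicates 1, 2 and 3 and 0.15, -0.18 and 0.11 on the 1G11-SOD3 replicates. Spots in the middle, which include those of *Id1* and *Id2*, are therefore reported apart. In addition, 2 measures are given beside the main difference: the median difference of the detected spots around a member, and the difference after a smooth surface over row and column was taken off each array (position-adjusted), which lowered the median SD among copies of 192 probes from 0.307 to 0.136. All arrays lay on 1 slide with 1G11-mock in row 2 and 1G11-SOD3 in row 1, so that line and slide row cannot be told apart. On each array 34.2% to 43.8% of 59305 spots for genes were well above background, and none was saturated.

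*Sod3* itself, whose spot lay in the middle, read 13.61, 12.66 and 9.86 in 1G11-mock and 16.37, 16.30 and 16.26 in 1G11-SOD3 cells. The lines did not overlap, which fits the labels (log2 fold change 4.27, SE 0.703, adjusted p = 0.00763 in limma, and 2.72 position-adjusted, adjusted p = 0.0136). However, 57.7% of the probes in the middle well above background on all 6 arrays were likewise higher without overlap. The 113 detected spots around *Sod3* had a median difference of 1.64, and 1 of them had a larger difference than *Sod3*. Without 1G11-SOD3 replicate 3 the difference of *Sod3* was 4.32 and its adjusted p, 0.05 after rounding, did not pass.

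The endothelial label was set against a list of markers. Of 9 marker genes with probes outside the middle, *Cdh5*, *Tek*, *Tie1*, *Erg* and *Emcn* were well above background on no array, *Cldn5* was on 1 of 6 and *Pecam1* on 3 of 6, whereas a *Kdr* probe and *Vwf* were on all 6. *Vwf*, von Willebrand factor, was lower in 1G11-SOD3 cells by -1.65 on the log2 scale (adjusted p = 0.00327, limma). In the middle, *Esam* was well above background on all 6 arrays. The summed linear level of the 11 endothelial probes outside the middle ran from 9920 to 10600 in 1G11-mock and from 6790 to 7320 in 1G11-SOD3 cells. The brightest of them, a *Kdr* probe (means 12.89 and 12.39), was not called (-0.51, adjusted p = 0.293 in limma). Of the 11 probes, 7 were well above background on no array. Of 7 fibroblast or mural markers outside the middle, 5 were called higher and none lower in 1G11-SOD3 cells, *Pdgfrb* by 2.39 and *Acta2* by 2.62, and their summed level ran from 21900 to 36000 and from 41900 to 175000. The highest sum was set by *Dcn* on 1G11-SOD3 replicate 3 (17.05, against 13.51 and 13.59 on replicates 1 and 2), a probe that was not called, and without *Dcn* the sums ran from 5030 to 7940 and from 29700 to 38800. Leukocyte markers (3 of 4 well above background on no array; sums of 2060 to 2740 and 1760 to 2130) and epithelial markers (2 of 4; 707 to 883 and 683 to 850) overlapped between the lines. The part of these markers in the differences of the BMP genes was not tested, and in such bulk RNA fewer cells of a type and less RNA per cell cannot be told apart.

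Of the 9 member probes outside the middle, which stand for 8 genes, 8 were well above background on at least 3 arrays. None was called higher and 1, *Bmp6*, was called lower, beside 0.660% of all probes outside the middle called higher and 1.20% called lower. Of the 15247 probes outside the middle well above background on all 6 arrays, as *Bmp6* was, 194 were called higher and 501 lower. The lines did not overlap for 3 of the 9, *Bmp6*, *Bmpr2* and *Grem1*, each lower in 1G11-SOD3 cells, beside 11.4% of all probes outside the middle and 20.8% of those well above background on all 6 arrays. The median log2 fold change was 0.05 over the 9 member probes and -0.06 over all probes outside the middle. Over the probes outside the middle well above background on at least 3 arrays it was -0.14. Of the 2 middle probes *Id2* was called higher, beside 11.9% of all probes in the middle and 24.2% of those well above background on all 6 arrays, as *Id2* was.

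**Figure D1:**
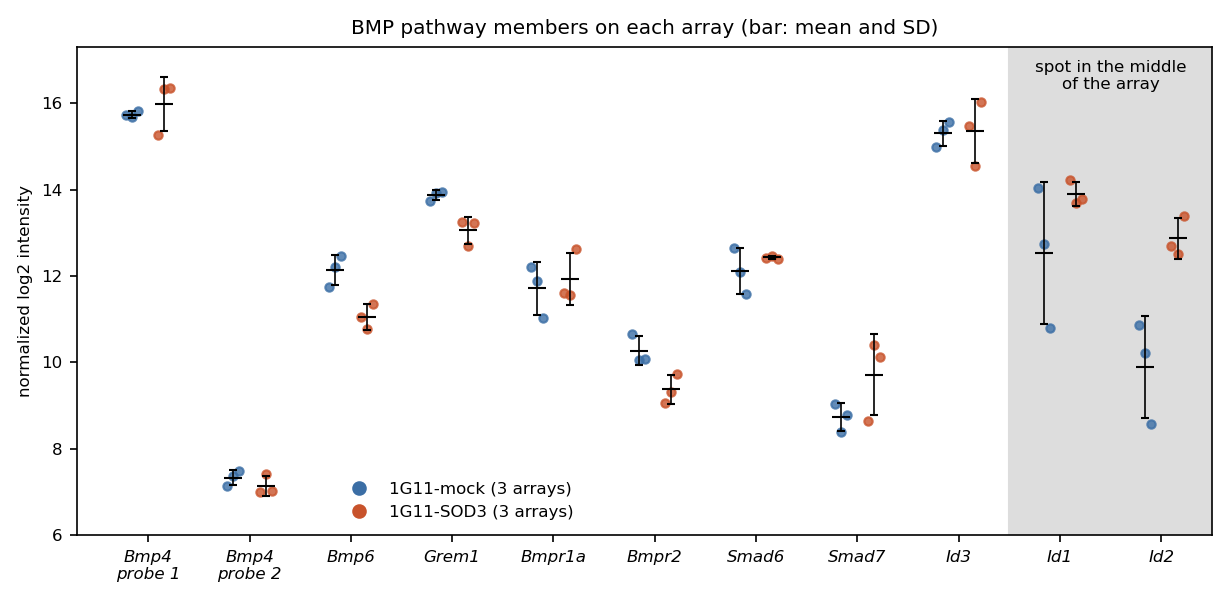
Normalized log2 intensity (vertical axis) of the 11 member probes on the 3 1G11-mock and 3 1G11-SOD3 arrays, with points for arrays and bars for mean and SD. *Bmp6*, *Grem1* and *Bmpr2* were lower on all 1G11-SOD3 arrays and *Id2*, in the shaded middle, was higher on all of them, while the other probes overlapped.

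Among the ligands, *Bmp4* had 2 probes on chromosome 14, of which probe 1 was well above background on all arrays and probe 2 on none. BMP4 is a ligand made by endothelial and stromal cells that acts in vessel and heart development. Probe 1 (47003391 to 47003450) read 15.72, 15.67 and 15.81 in 1G11-mock and 15.26, 16.33 and 16.35 in 1G11-SOD3 cells. Replicate 1 of 1G11-SOD3 lay below all 1G11-mock arrays and the other 2 above them, so that the lines overlapped (log2 fold change 0.25, SE 0.298, 95% interval -0.41 to 0.90, adjusted p = 0.769). After position adjustment the 1G11-SOD3 values were 15.93, 16.19 and 16.17 and the 1G11-mock values 15.73, 15.52 and 15.62, and the lines then no longer overlapped, although the difference of 0.48 missed the threshold (adjusted p = 0.218). Probe 2 (47003198 to 47003257) lies 133 bases away, has a GC content of 15.0% against 38.3% for probe 1. Its values ran from 6.99 to 7.48 over the 6 arrays, so that *Bmp4* is described by probe 1. Coordinates here and below are those of the array annotation, whose build is not given in the sources used here. All 11 lie outside the GRCm38 span of their gene, and no exon or UTR is assigned from them.

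*Bmp6* was the member called lower. BMP6 is an endothelial ligand best known for the control of hepcidin and iron. Its probe (chromosome 13, 38591479 to 38591538) read 11.75, 12.20 and 12.46 in 1G11-mock and 11.04, 10.76 and 11.35 in 1G11-SOD3 cells. The highest of the 1G11-SOD3 arrays lay below the lowest of the 1G11-mock arrays. The means were 12.14 ± 0.36 and 11.05 ± 0.29 (SD, n = 3), a 2.12-fold lower intensity (log2 fold change -1.09, SE 0.261, 95% interval -1.66 to -0.51, adjusted p = 0.0488). The spot lies at the edge of the array in column 2, where the 73 detected spots around it had a median difference of -0.44, and 4 of these had a lower value than *Bmp6*. The position-adjusted difference was -0.62 (adjusted p = 0.270). After that adjustment the lines overlapped for *Bmp6* (11.37 on 1G11-mock replicate 1, 11.75 on 1G11-SOD3 replicate 3). The call was made under 8 of 15 other settings and, with an array left out, only without 1G11-mock replicate 1 (-1.28, adjusted p = 0.0307). Without 1G11-mock replicates 2 and 3 the difference was -1.06 and -0.93 (adjusted p of 0.153 and 0.139). Without 1G11-SOD3 replicates 1, 2 and 3 it was -1.06, -0.93 and -1.24 (0.153, 0.208 and 0.0732). The call was lost at differences from -0.93 to -1.24, and those of -0.93 were also below 2-fold.

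The antagonist *Grem1* encodes gremlin 1, which binds BMP2, BMP4 and BMP7 outside the cell and keeps them from their receptors. Its probe (chromosome 2, 113589227 to 113589286) read 13.73, 13.92 and 13.94 in 1G11-mock and 13.24, 12.70 and 13.22 in 1G11-SOD3 cells. All 1G11-SOD3 values were below all 1G11-mock values, yet the difference missed the threshold (log2 fold change -0.81, SE 0.235, 95% interval -1.33 to -0.30, adjusted p = 0.104). In contrast to *Bmp6*, the spots around it did not share the difference, with a median of -0.01 over 108 detected spots, of which 8 had a lower value. The position-adjusted difference was of similar size (-0.78, adjusted p = 0.0573), and over 15 other settings it ran from -0.82 to -0.65 with no call.

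*Bmpr1a* encodes ALK3, a type 1 receptor for BMP2 and BMP4, and *Bmpr2* the type 2 receptor whose loss is known in hereditary pulmonary arterial hypertension. *Bmpr1a* (chromosome 14, 35224339 to 35224398) read 12.21, 11.88 and 11.03 in 1G11-mock and 11.59, 11.55 and 12.62 in 1G11-SOD3 cells. The lines overlapped and the arrays of each varied by more than the lines did (log2 fold change 0.21, SE 0.361, 95% interval -0.58 to 1.01, adjusted p = 0.845). *Bmpr2* (chromosome 1, 59927276 to 59927335) read 10.65, 10.06 and 10.09 in 1G11-mock and 9.06, 9.32 and 9.73 in 1G11-SOD3 cells. Here the lines did not overlap, and the difference missed the threshold (-0.90, SE 0.263, 95% interval -1.47 to -0.32, adjusted p = 0.109). This spot, too, lay near the left edge, in column 11, where 68 detected spots around it had a median of -0.34. The position-adjusted difference of *Bmpr2* was -0.38 (adjusted p = 0.407). Its adjusted values were 10.42, 9.90 and 9.67 in 1G11-mock and 9.48, 9.58 and 9.79 in 1G11-SOD3 cells, and the lines then overlapped.

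The inhibitory SMADs act at different points, SMAD6 mainly in BMP and SMAD7 in both BMP and TGF-β signaling. *Smad6* (chromosome 9, 63800980 to 63801039) read 12.64, 12.09 and 11.59 in 1G11-mock and 12.42, 12.46 and 12.40 in 1G11-SOD3 cells. Its 1G11-SOD3 arrays lay within the range of the 1G11-mock arrays (log2 fold change 0.32, SE 0.275, 95% interval -0.29 to 0.92, adjusted p = 0.662). *Smad7* (chromosome 18, 75555371 to 75555430), detected by the scanner software in 2 of the 3 1G11-mock and all 3 1G11-SOD3 replicates, read 9.04, 8.39 and 8.78 in 1G11-mock and 8.64, 10.39 and 10.11 in 1G11-SOD3 cells. As for *Bmp4* probe 1, replicate 1 of 1G11-SOD3 read within or below the 1G11-mock arrays while replicates 2 and 3 read above them. The difference of *Smad7* was 0.98 (SE 0.400, 95% interval 0.10 to 1.86) at an adjusted p of 0.282. Of 111 detected spots around it, whose median was 0.03, 1 had a larger difference, and *Smad7* differed by 1.20 once adjusted for place (adjusted p = 0.0655). The adjusted values, 9.20, 8.33 and 8.16 in 1G11-mock and 9.27, 10.11 and 9.90 in 1G11-SOD3 cells, no longer overlapped. Without 1G11-SOD3 replicate 1 it was 1.50 and passed the threshold (adjusted p = 0.0293), whereas without replicate 2 it was 0.63.

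**Figure D2:**
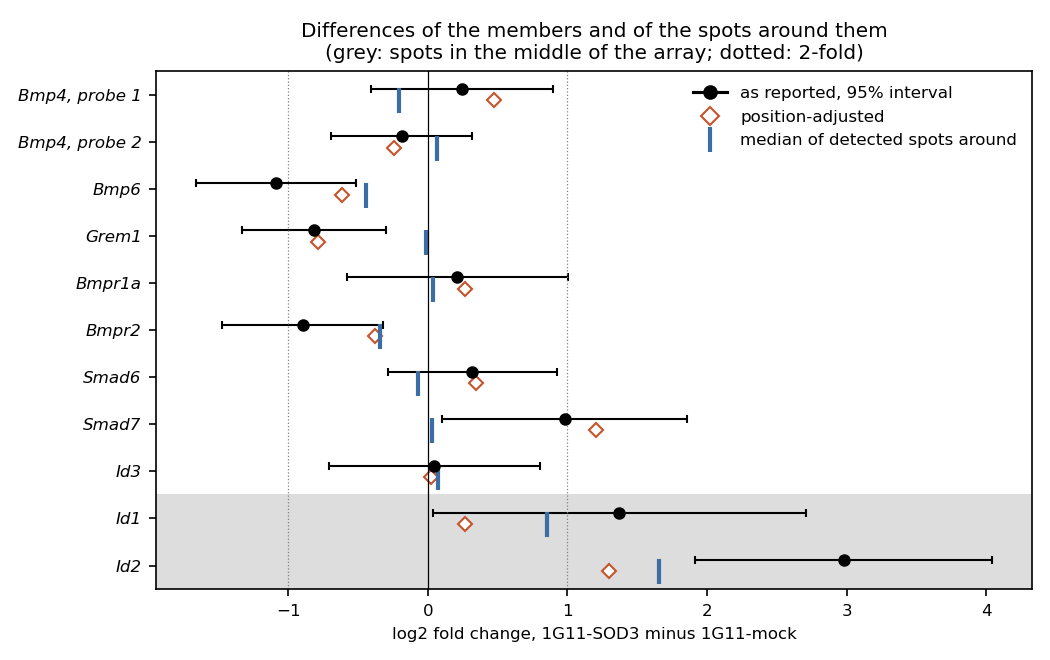
Log2 fold change (1G11-SOD3 minus 1G11-mock, horizontal axis) of each member probe, with circles and lines for the value and its 95% interval, diamonds for the position-adjusted value and ticks for the median of detected spots around it. The ticks of *Bmp6* and *Bmpr2* lie to the left of 0 (-0.44 and -0.34) and those of *Id1* and *Id2* to the right (0.86 and 1.65), while those of *Grem1* and *Smad7* lie near 0.

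Of the ID genes, *Id3* was measured outside the middle. Its probe (chromosome 4, 135700075 to 135700249 in the annotation, which spans more than its 60 bases) read 14.98, 15.37 and 15.55 in 1G11-mock and 15.48, 14.55 and 16.02 in 1G11-SOD3 cells. The 1G11-SOD3 arrays included both the lowest and the highest value (log2 fold change 0.05, SE 0.344, 95% interval -0.71 to 0.80, adjusted p = 0.970), which does not show that the lines are alike. Position adjustment left the value at 0.03.

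*Id1* and *Id2* were measured in the middle. *Id1* (chromosome 2, 152563083 to 152563142), the ID gene most often used to read BMP activity in endothelial cells, read 14.04, 12.75 and 10.79 in 1G11-mock and 14.22, 13.68 and 13.79 in 1G11-SOD3 cells. On the 1G11-mock arrays the detected spots around *Id1* deviated from the mean of the 3 1G11-SOD3 arrays by a median of -0.32, -0.81 and -1.75. This was the same order as for *Id1*, and replicate 1, the least dim, read within the 1G11-SOD3 range. The log2 fold change of *Id1* was 1.37 (SE 0.609, 95% interval 0.03 to 2.71, adjusted p = 0.331), that of the 105 detected spots around it had a median of 0.86, and 33 of them had a larger one. After position adjustment *Id1* read 13.94, 13.15 and 12.13 in 1G11-mock and 13.53, 13.36 and 13.11 in 1G11-SOD3 cells, a difference of 0.26 (adjusted p = 0.741). Without 1G11-mock replicate 3 the unadjusted difference was 0.50, and without replicate 1 it was 2.13 (adjusted p = 0.0431).

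*Id2* (chromosome 12, 25778904 to 25778963) read 10.87, 10.22 and 8.58 in 1G11-mock and 12.69, 12.51 and 13.40 in 1G11-SOD3 cells. All 1G11-SOD3 arrays were above all 1G11-mock arrays, beside 26.9% of all probes in the middle and 57.7% of those well above background on all 6 arrays (means 9.89 ± 1.18 and 12.87 ± 0.47, SD, n = 3). The measured difference was 7.88-fold (log2 fold change 2.98, SE 0.485, 95% interval 1.91 to 4.04, adjusted p = 0.00712), but the detected spots around it differed by a median of 1.65, 13 of them by more than *Id2* and 96 by less. After position adjustment *Id2* read 11.21, 10.97 and 10.07 in 1G11-mock and 11.81, 11.98 and 12.36 in 1G11-SOD3 cells. The lines still did not overlap, and the difference fell to 1.30 (SE 0.311, adjusted p = 0.0436). *Id2* was called higher under 14 of 14 other settings, and with an array left out it was called in 5 of 6 fits, the exception being without 1G11-SOD3 replicate 3 (2.71, adjusted p = 0.0504). Of these settings, position adjustment was the one made here to take off differences by place. Under it 145 of the 6435 probes in the middle were called higher and 1243 lower. Since *Id1* and *Id2* each had 1 spot in the middle and none elsewhere, no copy outside the middle could be set beside either.

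**Figure D3:**
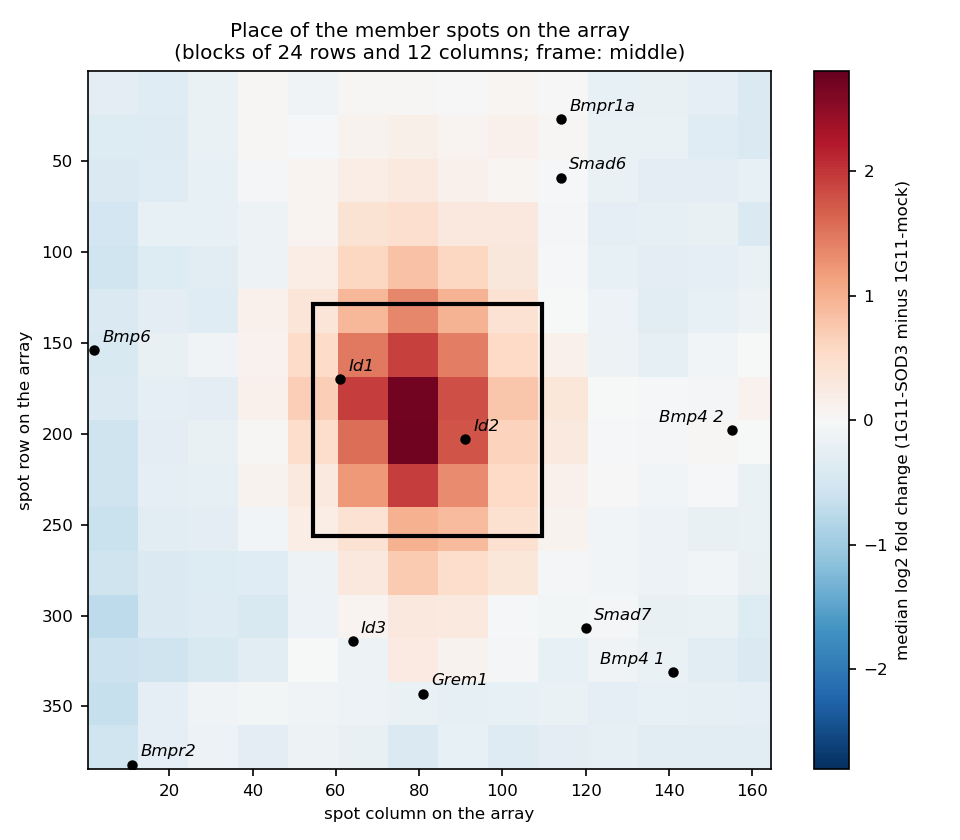
Place of the 11 member spots (points) on the array by spot column and row, over the median log2 fold change (color) of detected spots in blocks of 24 rows and 12 columns, which ran from -0.72 to 2.72. *Id1* and *Id2* lie in the framed middle, where blocks are red (higher in 1G11-SOD3), and *Bmp6* and *Bmpr2* lie at the left edge.

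The profile most like that of *Id3*, the brightest ID probe outside the middle, was sought among 15246 probes well above background on all 6 arrays. The highest Pearson r over the 6 arrays was 0.995 for a probe without a gene name, followed by a chromosome 3 lincRNA probe (0.995) and *Il6st* (0.989), and 12 probes exceeded 0.95. The points are 6 arrays that share the slide and its spatial pattern, and these values are a description only.

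A list of 54 other genes of the pathway, all on the array, gave 64 probes of 49 genes outside the middle. None was called higher and 1, *Tcf4*, was called lower, while 27 were well above background on no array and 28 on at least 3. The lines did not overlap for 6 probes higher and 6 lower of the 64, and the median log2 fold change was -0.02. These shares stand beside 8.22% and 11.4% of all probes outside the middle. In the middle, 8 probes of 8 genes gave no call.

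**Figure D4:**
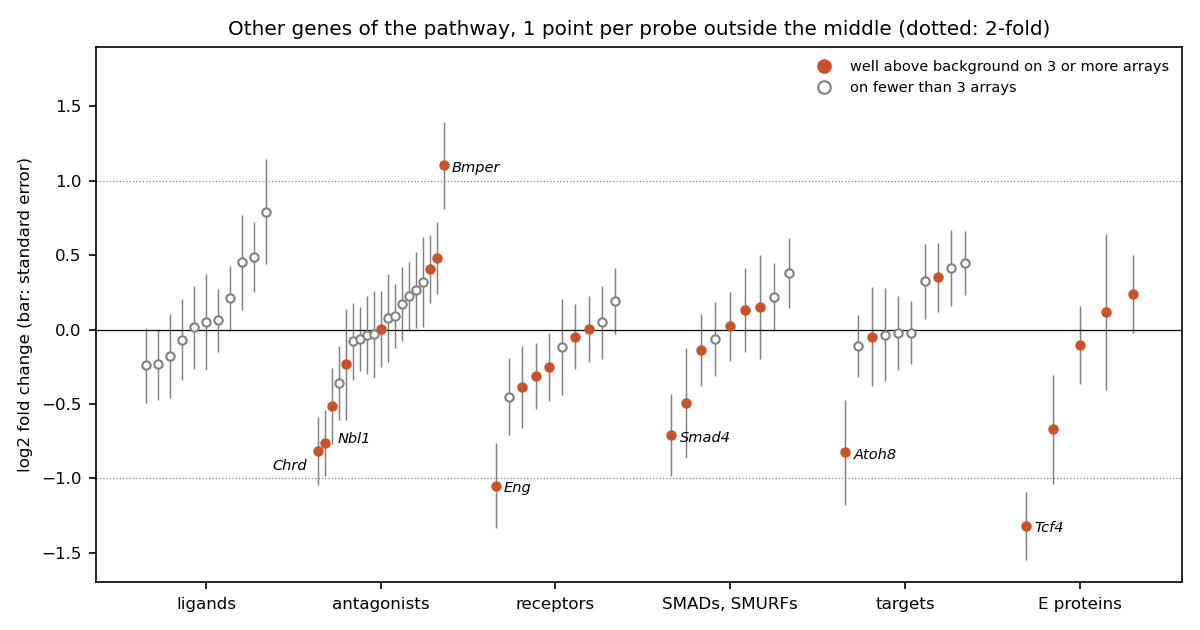
Log2 fold change with SE (vertical axis) of the 64 probes of other BMP pathway genes outside the middle by role, with filled points for probes well above background on at least 3 arrays. Ligand probes are all open, the E protein *Tcf4* is the called probe, and the antagonist *Bmper* is the highest filled point at 1.10.

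Among the other ligands, 9 of 11 probes were well above background on no array, and *Bmp8a*, the brightest, averaged 7.96 in 1G11-mock and 8.02 in 1G11-SOD3 cells. *Bmp4* and *Bmp6* were thus the ligands outside the middle whose probes were well above background on at least 3 arrays. Among 19 antagonist probes of 16 genes, 8 were well above background on at least 3 arrays and none was called. *Bmper*, a modulator that binds BMPs at the endothelial surface, read 11.79, 11.95 and 12.46 in 1G11-mock and 12.62, 13.56 and 13.32 in 1G11-SOD3 cells. It was higher on every 1G11-SOD3 array (log2 fold change 1.10, SE 0.292, adjusted p = 0.0730), and none of the 128 detected spots around it, whose median was -0.37, had a larger difference. *Bmper* passed the threshold in 6 of 15 other settings, among them the replicate number as a block (adjusted p = 0.0291) and position adjustment (1.47, adjusted p = 0.00998). With an array left out it passed only without 1G11-SOD3 replicate 1 (1.37, adjusted p = 0.0474). *Bmper* was singled out after its values were seen, as were *Chrd* and *Nbl1*. *Chrd* (chordin) and *Nbl1* were lower on every 1G11-SOD3 array, by -0.82 (adjusted p = 0.0925) and -0.76 (adjusted p = 0.106). Their position-adjusted differences were -0.27 and -0.54. After that adjustment the lines overlapped for *Chrd* (8.85 on 1G11-mock replicate 3, 8.90 on 1G11-SOD3 replicate 1) but not for *Nbl1*. *Fstl1*, the brightest antagonist, averaged 15.68 and 16.09, a difference of 0.41 (adjusted p = 0.458). The detected spots around *Fstl1* had a median of -0.34, and its position-adjusted difference was 0.67 (adjusted p = 0.0994).

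None of the 10 receptor probes of 7 genes was called. *Eng* encodes endoglin, an endothelial coreceptor for BMP9 and BMP10 whose loss is known in hereditary hemorrhagic telangiectasia. It read 13.25, 13.92 and 14.28 in 1G11-mock and 12.99, 12.52 and 12.78 in 1G11-SOD3 cells. The lines did not overlap (log2 fold change -1.05, SE 0.286, adjusted p = 0.0822, and -0.72 position-adjusted, adjusted p = 0.130). The 114 detected spots around *Eng* had a median of -0.40. *Eng* was called under 0 of 15 other settings. With an array left out it was called lower only without 1G11-mock replicate 1 (-1.34, adjusted p = 0.0237). *Smad5*, the brightest of 9 SMAD and SMURF probes, averaged 13.47 and 13.49 (0.02, adjusted p = 0.979), and none of the 9 was called. Among 10 probes of 8 other targets none was called either, and *Atoh8*, the brightest, differed by -0.83 (adjusted p = 0.309). The 98 detected spots around *Atoh8* had a median of -0.42, and its position-adjusted difference was -0.48. *Id4*, the remaining ID gene, was among these targets and was well above background on no array.

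The E proteins are the partners that ID proteins bind. Of 5 probes of 3 genes outside the middle, that of *Tcf4* was called lower. It read 13.32, 12.97 and 13.41 in 1G11-mock and 11.90, 11.79 and 12.06 in 1G11-SOD3 cells. All 1G11-SOD3 arrays lay below all 1G11-mock arrays (log2 fold change -1.32, SE 0.227, adjusted p = 0.00947). The spot lies in column 7, where the 108 detected spots around it had a median of -0.62 and 3 had a lower value, and the position-adjusted difference was -0.74 (adjusted p = 0.105). The call was also lost with the scanner's processed signal (-0.46, adjusted p = 0.269). A further *Tcf4* probe, in the middle, was well above background on 1 array and differed by 0.74 (adjusted p = 0.167). The 108 detected spots around that probe had a larger median difference, of 1.45. *Tcf3*, the brightest E protein gene by mean, differed by 0.24 (adjusted p = 0.739).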

How the data were processed

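Per the labels, total RNA of 3 biological replicates each of 1G11-mock and 1G11-SOD3 cells was labeled with Cy3 and hybridized to Agilent SurePrint Mouse G3 arrays. The authors deposited the scanner output of Agilent Feature Extraction 10.7.3.1, with spot and local background intensity that is not normalized. They also deposited a table of log2 values after normexp (offset of 50) and quantile normalization, which was recomputed to within 0.005 from median pixel intensity with control spots kept.

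Here mean spot intensities were corrected with normexp (offset of 50, local background median), taken to log2 and quantile normalized without control spots in limma 3.58.1 (R 4.3.3). Outlier spots were left out, and copies of a probe were averaged separately in and outside the middle, which gave 49526 and 6435 values per array. The lines were compared with lmFit and eBayes and Benjamini-Hochberg adjustment over all 55961. With 3 arrays per line an exact permutation test cannot go below p = 0.1. Precision is limited by the number of arrays.

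The members, lists, tests and alternatives were chosen with earlier results of these data known. Besides the members, the text names *Sod3*, endothelial markers, called genes and the brightest gene of each role of the pathway list, and the 3 probes most like *Id3*; brightness of a probe is no measure of abundance between genes. Other names were chosen after their values were seen. Spots around a member are those within 12 rows and 6 columns of it that were well above background on at least 3 arrays. The position surface was a Gaussian kernel (SD of 12 rows and 6 columns).

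Replicate numbers are shared between the lines. Deviations of same-numbered arrays from their line means correlated at 0.166, 0.102 and 0.157 across probes, and those of differently numbered arrays at -0.169 to 0.056. The labels give the number alone, so whether the numbers pair the arrays was not settled. The main fit took the arrays as unpaired, and the replicate block was an alternative setting. The replicate number was also the slide column of the array in both lines, and the number and the column cannot be told apart. The procedure was tested on simulated data from the fit onward, with log2 values drawn without differences by place on the array. Background correction, normalization and position adjustment were not part of that test. Figures were drawn with Python 3.11.15, pandas 2.3.3 and matplotlib 3.10.9.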

Additional observations from a re-analysis of the deposited data

How the results depend on the processing

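Intensities were taken without background correction, as pixel medians, with an offset of 16 or as the processed signal, and were scaled to the 75th percentile or by cyclic loess rather than quantile normalized. Control spots or outlier spots were kept, dim probes or the middle were dropped, copies were averaged over the array, the position adjustment, a variance trend or a replicate block was added, the deposited table was used, and arrays were left out in turn. The 1 member called lower outside the middle (*Bmp6*) was 0 under an offset of 16, the processed signal, 75th percentile scaling, cyclic loess, a variance trend, position adjustment and the middle left out, and 0 to 1 with an array left out. Members called higher outside the middle ranged from 0 to 1 with an array left out. Those in the middle rose from 1 to 2 (*Id1* with *Id2*) under 75th percentile scaling and ranged from 0 to 2 with an array left out. Pathway genes called higher were 0 as reported, 3 with the processed signal, 1 with 75th percentile scaling, cyclic loess, the replicate block, position adjustment or the middle left out, and 0 to 1 with an array left out. Those called lower were 1 as reported (*Tcf4*), 6 with the processed signal, *Tcf4* not among them, 0 with position adjustment and 1 to 2 with an array left out. *Sod3* ranged from 3.17 to 5.06 with an array left out. The replicate block changed the call of no member, with adjusted p of 0.0271 for *Bmp6* and 0.00469 for *Id2*. The direction reversed with the processed signal for *Acvr2b* (-0.31 to 0.051), a *Smad4* probe (-0.71 to 0.059) and *Id3* (0.05 to -0.072), none called in either, and with an array left out for *Bmpr1a* (-0.14 to 0.47) and *Id3* (-0.29 to 0.44). The cause of these changes was not tested. The 327 probes higher and 593 lower outside the middle became 677 and 7246 with the processed signal, where the median of all these probes shifted from -0.06 to -0.50, and 474 and 1077 with 75th percentile scaling (median -0.35). They became 505 and 407 with position adjustment, 412 and 356 with the middle left out, and 156 to 335 and 283 to 534 with an array left out. Relative to the shifted median, *Bmp6* differed by 0.05 with the processed signal and by -0.58 with 75th percentile scaling, and *Id2* by 2.76 and 3.40. That median is of probes outside the middle. For *Id2* it therefore leaves in the difference of the middle, where the spots around *Id2* had a median of 1.65 as reported. Relative to the median of probes well above background on all 6 arrays, which shifted less (-0.17 as reported, -0.01 and -0.09), *Bmp6* differed by -0.44 and -0.85. In the middle, position adjustment turned 768 higher and 4 lower calls into 145 and 1243, dim probes included, so that it is read here only for probes well above background on at least 3 arrays.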
